A study of Rattus norvegicus with 10 samples.

Results

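Transcripts of 3 inhibitory or modulatory neuropeptides and of their receptors were examined in the nucleus tractus solitarii (NTS), the dorsal brainstem nucleus that receives baroreceptor and other visceral input. The peptides were neuropeptide Y (Npy), galanin (Gal) and somatostatin (Sst), and the receptors were Npy1r, Npy2r, Npy5r, Galr1, Sstr1 and Sstr2. All probe sets that the platform annotation assigns to one of these symbols alone were taken, which gave 13 probe sets for the 9 genes, out of 31042 probe sets and 14217 named genes in all. The tested strain was the spontaneously hypertensive rat (SHR), an inbred line whose blood pressure rises with age without any intervention, and it was set against the Wistar-Kyoto rat (WKY), its usual normotensive control. All animals were males aged 10 to 13 weeks with no treatment named in the labels, and 5 Affymetrix Rat 230 2.0 arrays were hybridised for each strain. The design text gives each array as its own biological replicate whereas the sample descriptions mention 5 animals, so a pool cannot be told apart from a single animal, and p-values reflect only how these samples spread. As a model, the comparison is limited in that all features in which the 2 inbred strains differ are compared together with blood pressure.

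Neuropeptide Y, galanin and somatostatin are made as precursors, cut in dense-core vesicles and released from neurons together with a fast transmitter. Their receptors belong to the G protein-coupled receptors that act mainly through inhibitory Gi/o proteins, which lower cyclic AMP, open inwardly rectifying potassium channels and reduce calcium entry. In the NTS, neuropeptide Y is found in catecholamine neurons among others, neuropeptide Y and galanin injected there alter blood pressure, and somatostatin marks inhibitory and other local neurons. Whether the expression of these systems differs between the hypertensive and the normotensive strain is the question that the comparison addresses.

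The promoter windows of the 3 peptide genes are shown because these genes are the ligands of the systems described, and that of Sstr2 because it was the other gene among the 9 whose window held the motif found in Sst. Each window runs from 250 bases before to 50 bases after the annotated gene start, 5′ to 3′ on the strand of the gene, from RefSeq on build GRCr8. Capitals mark matches to TGACGTCA, the full cyclic AMP response element (CRE), and to the sequence TATAAA, found in many core promoters, and both strands were searched. The 2 motifs do not overlap in these windows.
Npy, chr4:80211861-80212160 (+ strand): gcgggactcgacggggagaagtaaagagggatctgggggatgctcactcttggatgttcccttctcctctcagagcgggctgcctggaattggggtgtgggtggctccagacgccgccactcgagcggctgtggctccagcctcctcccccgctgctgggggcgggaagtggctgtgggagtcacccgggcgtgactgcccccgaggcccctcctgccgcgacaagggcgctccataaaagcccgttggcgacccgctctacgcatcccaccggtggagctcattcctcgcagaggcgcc
Gal, chr1:210084523-210084822 (- strand): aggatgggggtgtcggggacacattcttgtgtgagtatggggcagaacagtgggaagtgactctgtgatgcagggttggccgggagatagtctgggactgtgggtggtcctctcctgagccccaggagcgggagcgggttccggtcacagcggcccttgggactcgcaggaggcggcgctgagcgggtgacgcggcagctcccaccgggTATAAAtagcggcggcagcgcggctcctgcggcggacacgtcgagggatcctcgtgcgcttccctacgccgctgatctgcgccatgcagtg
Sst, chr11:90461296-90461595 (+ strand): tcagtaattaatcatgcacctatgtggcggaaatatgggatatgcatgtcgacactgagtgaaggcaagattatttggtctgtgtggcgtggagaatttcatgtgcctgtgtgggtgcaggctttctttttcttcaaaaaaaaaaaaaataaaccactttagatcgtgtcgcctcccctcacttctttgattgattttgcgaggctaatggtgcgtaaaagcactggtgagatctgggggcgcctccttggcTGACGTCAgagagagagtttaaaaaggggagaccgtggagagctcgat
Sstr2, chr10:99163103-99163402 (+ strand): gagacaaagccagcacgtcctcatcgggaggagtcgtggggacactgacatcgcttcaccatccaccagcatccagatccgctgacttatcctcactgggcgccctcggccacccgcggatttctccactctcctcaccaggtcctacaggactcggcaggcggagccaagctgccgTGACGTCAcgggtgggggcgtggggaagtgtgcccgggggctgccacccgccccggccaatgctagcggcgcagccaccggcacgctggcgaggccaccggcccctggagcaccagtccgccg
The CRE began 2 bases downstream of the annotated start of Sst and 73 bases upstream of that of Sstr2. TATAAA began 41 bases upstream of the annotated start of Gal. Only exact matches were marked, and where transcription of these genes begins in the NTS was not tested. The full CRE was in 1.83% of 33469 promoter windows of this length and TATAAA in 14.2%. The window of Npy held neither, which says only that these letters are not in these 300 bases. In position, Npy1r and Npy5r are neighbours on chromosome 16 with 0 genes listed between them, and they are transcribed in opposite directions.

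No strain difference passed the test for any of the 3 peptides or of the 4 receptors that could be tested, and Npy2r and Galr1 were too dim to be tested. Of the 13 probe sets, 7 passed the filter on dim signals (at least 5 of the 10 arrays at or above the 40th percentile of that array), 1 each for Npy, Gal, Sst, Npy1r, Npy5r, Sstr1 and Sstr2. Of these 7, 0 passed the threshold of a Benjamini-Hochberg adjusted p below 0.05 in limma, and 0 had an unadjusted p under 0.05. Among all 18846 probe sets tested, 803 passed, or 4.26% (2.06% higher and 2.2% lower in SHR), and 21% had an unadjusted p under 0.05. Adjusted p-values of the 7 lay between 0.493 and 0.963. The SHR and WKY values overlapped on all 13 probe sets, whereas they did not overlap on 6.13% of all probe sets tested. Signals are in the arbitrary linear units of the deposited table, and log2 differences are SHR minus WKY of log2(signal + 16), which understates the change of low signals. Because the probes of different genes bind with different strength, the signal of one probe set is not set against that of another.

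**Figure D1:**
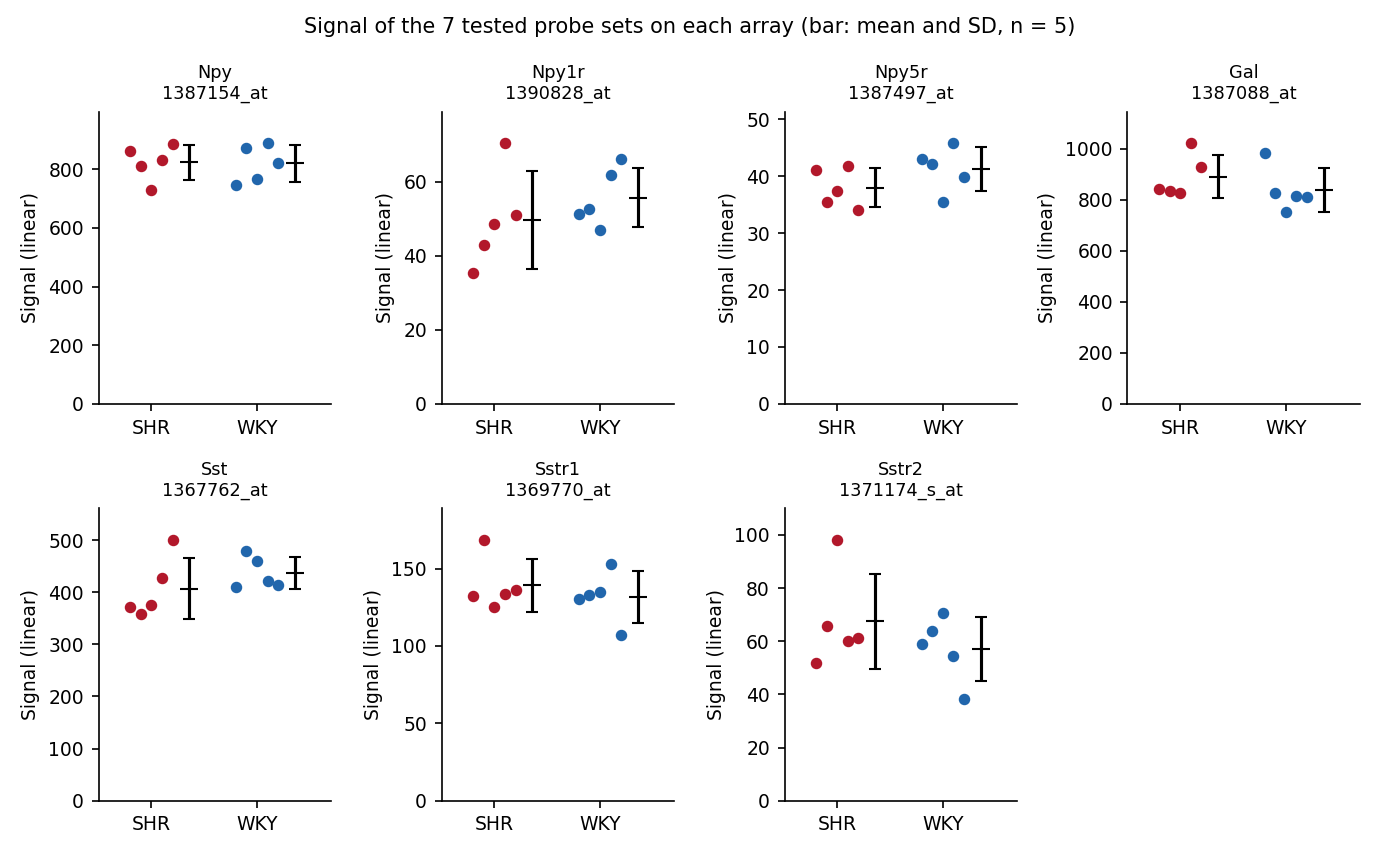
Signal (linear, arbitrary units, axis from 0) of the 7 tested probe sets on each array, with a panel for each gene, SHR arrays left in red and WKY arrays right in blue; the black bar gives the mean and SD of 5 arrays. The points of the strains overlap in every panel, and Npy averages 824 in SHR and 820 in WKY.

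Among the peptides, Npy had the closest means. Its signal was 861, 811, 731, 832 and 886 on the SHR arrays, against 747, 873, 766, 890 and 823 on the WKY arrays. Both strains covered nearly the same span, with the lowest value in SHR 3 and the highest in WKY 4. Npy averaged 824 ± 59.5 in SHR arrays and 820 ± 63.2 in WKY arrays (SD, n = 5 each), a log2 difference of 0.0076 ± 0.066 (SE; limma adjusted p = 0.963). The 95% interval of that difference ran from 1.10-fold lower to 1.11-fold higher in SHR, so larger differences of this transcript lie outside it. Its sign is not settled: leaving out SHR 1, SHR 5, WKY 1 or WKY 3 gave differences below 0. In a fit that took array median signal as a covariate the difference was 0.14 ± 0.077 (adjusted p = 0.585), and without SHR 2 and SHR 3 together it was 0.070 (adjusted p = 0.676).

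Gal, the precursor of galanin, had signals of 841, 835, 828, 1024 and 930 on the SHR arrays, against 983, 827, 751, 816 and 812 on the WKY arrays. In SHR the arrays 4 and 5 stood above the other 3, and in WKY the first array stood above the other 4. Gal averaged 892 ± 85.0 in SHR arrays and 838 ± 86.2 in WKY arrays, and the log2 difference was 0.089 ± 0.076 (limma adjusted p = 0.533). The 95% interval ran from 1.05-fold lower to 1.19-fold higher in SHR.

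Sst, the precursor of somatostatin, had signals of 372, 359, 375, 428 and 501 on the SHR arrays, against 410, 479, 461, 421 and 414 on the WKY arrays. SHR 1, SHR 2 and SHR 3 lay below all 5 WKY arrays, while SHR 5 lay above them all. Sst averaged 407 ± 58.8 in SHR arrays and 437 ± 31.0 in WKY arrays, and the log2 difference was -0.11 ± 0.083 (limma adjusted p = 0.493). Its 95% interval ran from 1.22-fold lower to 1.05-fold higher in SHR. This difference depended on a few arrays: it was -0.18 without SHR 5 (adjusted p = 0.141) and -0.017 without SHR 2 and SHR 3 together. In tissue of mixed cells, fewer cells that express a gene and less RNA in each of them cannot be told apart.

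Npy1r encodes the Y1 receptor, which in blood vessels mediates constriction by neuropeptide Y and on neurons is largely postsynaptic. It had signals of 35.3, 42.9, 48.6, 70.5 and 51.1 on the SHR arrays, against 51.2, 52.6, 46.8, 61.7 and 66.2 on the WKY arrays. SHR held both the lowest value (SHR 1) and the highest (SHR 4). Npy1r averaged 49.7 ± 13.1 in SHR arrays and 55.7 ± 7.97 in WKY arrays, and the log2 difference was -0.14 ± 0.14 (limma adjusted p = 0.583), with a 95% interval from 1.34-fold lower to 1.10-fold higher in SHR. Without SHR 4 it was -0.25 (adjusted p = 0.277), and without SHR 1 it was -0.058 (adjusted p = 0.848).

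Npy5r encodes the Y5 receptor, known for its part in feeding, and is the neighbour of Npy1r. On its brighter probe set it had 41.1, 35.5, 37.4, 41.8 and 34.0 on the SHR arrays, against 43.0, 42.2, 35.4, 45.9 and 39.9 on the WKY arrays. Values of the strains interleaved, with the 3 highest in WKY and the lowest in SHR 5. Npy5r averaged 37.9 ± 3.42 in SHR arrays and 41.3 ± 3.92 in WKY arrays, and the log2 difference was -0.086 ± 0.11 (limma adjusted p = 0.702), with a 95% interval from 1.25-fold lower to 1.11-fold higher in SHR. Quantile normalization, which gives all arrays the same distribution, made the difference larger, -0.20 ± 0.11, and it did not pass there (adjusted p = 0.354). Its other probe set reached the 40th percentile on 0 arrays.

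Sstr1 encodes somatostatin receptor 1. On its brightest probe set it had 132, 169, 125, 133 and 136 on the SHR arrays, against 130, 133, 135, 153 and 107 on the WKY arrays. All but SHR 2, WKY 4 and WKY 5 lay between 125 and 136. Sstr1 averaged 139 ± 17.0 in SHR arrays and 132 ± 16.6 in WKY arrays, and the log2 difference was 0.072 ± 0.095 (limma adjusted p = 0.703). The 95% interval ran from 1.09-fold lower to 1.21-fold higher in SHR. Without SHR 2 the log2 difference was 0.0077.

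Sstr2 encodes somatostatin receptor 2, the subtype on which the clinical analogue octreotide acts most strongly. The name of its brighter probe set ends in s_at, the manufacturer's mark for probes that can match transcripts of more than one gene. That probe set had 51.9, 65.9, 98.3, 60.1 and 61.2 on the SHR arrays, against 58.8, 63.7, 70.5, 54.6 and 38.2 on the WKY arrays. SHR 3 stood well above the other 9 arrays and WKY 5 well below them, and the other 8 values lay between 51.9 and 70.5. Sstr2 averaged 67.5 ± 17.9 in SHR arrays and 57.2 ± 12.1 in WKY arrays, and the log2 difference was 0.18 ± 0.15 (limma adjusted p = 0.499), the largest of the 7, with a 95% interval from 1.09-fold lower to 1.41-fold higher in SHR. These 2 arrays also had the highest and the lowest median signal over all probe sets, 49.8 in SHR 3 and 39.6 in WKY 5, and the part of signal level in the difference was not tested beyond a fit with the median signal as a covariate. That fit turned the difference to -0.16 ± 0.16. Without SHR 3 it was 0.064, and without WKY 5 it was 0.080.

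**Figure D2:**
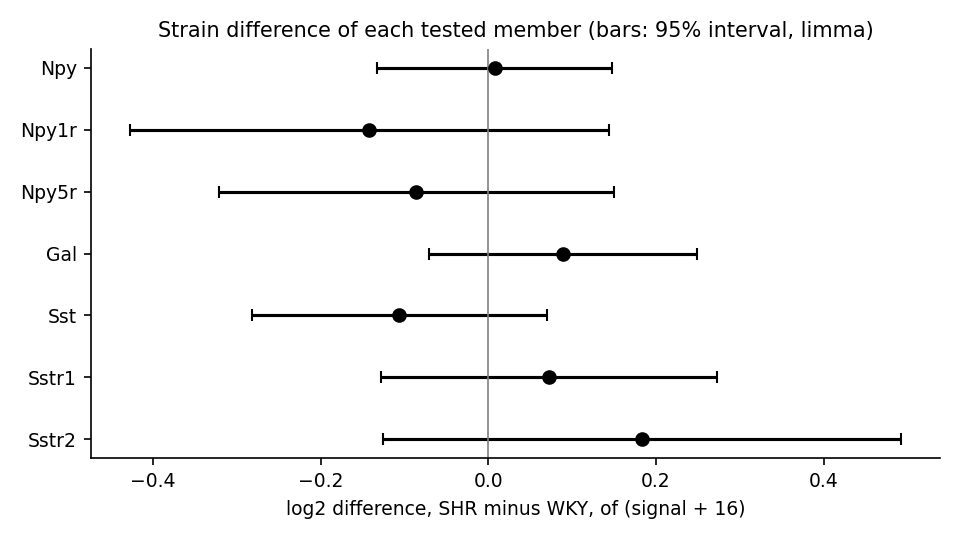
Log2 difference (SHR minus WKY, of signal + 16) of the 7 tested members, with points for the limma estimate and bars for its 95% interval. Every interval crosses 0, and the intervals of Npy and Gal are narrower than those of Npy1r and Sstr2, whose ends reach -0.43 and 0.49.

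Both Npy2r and Galr1, and a further 4 probe sets of receptors, were dimmer than the filter requires and reached the 40th percentile on 0 of 10 arrays, a level that lay between a signal of 26.3 and 35.9 depending on the array. Npy2r, the mainly presynaptic Y2 receptor, had 11.8, 7.74, 13.7, 4.14 and 8.90 on the SHR arrays, against 12.5, 3.11, 6.30, 3.50 and 5.73 on the WKY arrays. Galr1, a Gi-coupled galanin receptor, spanned 0.813 to 14.0 across the SHR arrays, with a median of 2.36, and 1.10 to 6.23 across the WKY arrays. Neither is judged present or absent from these signals, since no detection calls were used. The second probe set of Npy5r spanned 3.99 to 18.4 across SHR and 3.75 to 12.1 across WKY. The further probe sets of Sstr1 spanned 4.19 to 34.4 across SHR and 11.9 to 25.1 across WKY on the one, and 3.49 to 7.06 across SHR and 1.88 to 6.88 across WKY on the other. The second probe set of Sstr2 spanned 8.33 to 35.8 across SHR and 13.2 to 22.1 across WKY, and its highest value, like that of the brighter one, was in SHR 3. When the filter was dropped and all 13 probe sets were tested, 0 passed, and the adjusted p of these 6 lay between 0.481 and 0.953 (limma).

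**Figure D3:**
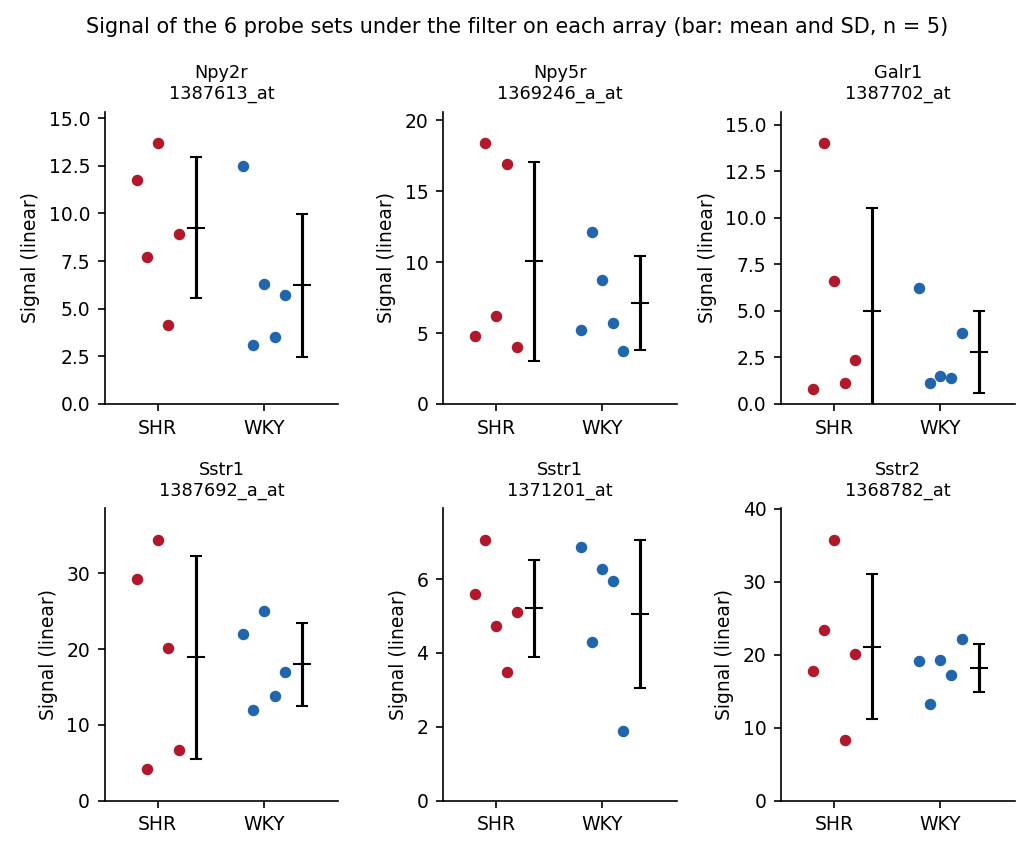
Signal (linear, arbitrary units, axis from 0) of the 6 probe sets under the filter on each array, SHR arrays left in red and WKY arrays right in blue; the black bar gives the mean and SD of 5 arrays, and the lower end of the SHR bar of Galr1 runs below the axis. Strains overlap in every panel and the highest value of any is 35.8, in SHR 3 for Sstr2.

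Seen as a group, the 7 tested members had 4 differences above 0 and 3 below, with a median log2 difference of 0.0076 against 0.016 for all probe sets tested. Their median absolute difference was 0.089, against 0.12 for all probe sets tested, and their median SE was 0.095, against 0.10. By gene family, both tested receptors of neuropeptide Y had differences below 0, and both tested somatostatin receptors had differences above 0. The sign of Npy1r and that of Sstr2 turned with the median signal as a covariate. Without the filter, dim probe sets went the other way, at 0.19 for Npy2r, 0.14 for Npy5r and -0.037 for one of Sstr1. The other dim probe sets of Sstr1 and Sstr2 were above 0, at 0.014 and 0.081. In the two-sided exact permutation test of the 10 arrays for each of the 7, p lay between 0.206 and 0.929, unadjusted, where 5 arrays against 5 allow a smallest p of 0.00794.

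**Figure D4:**
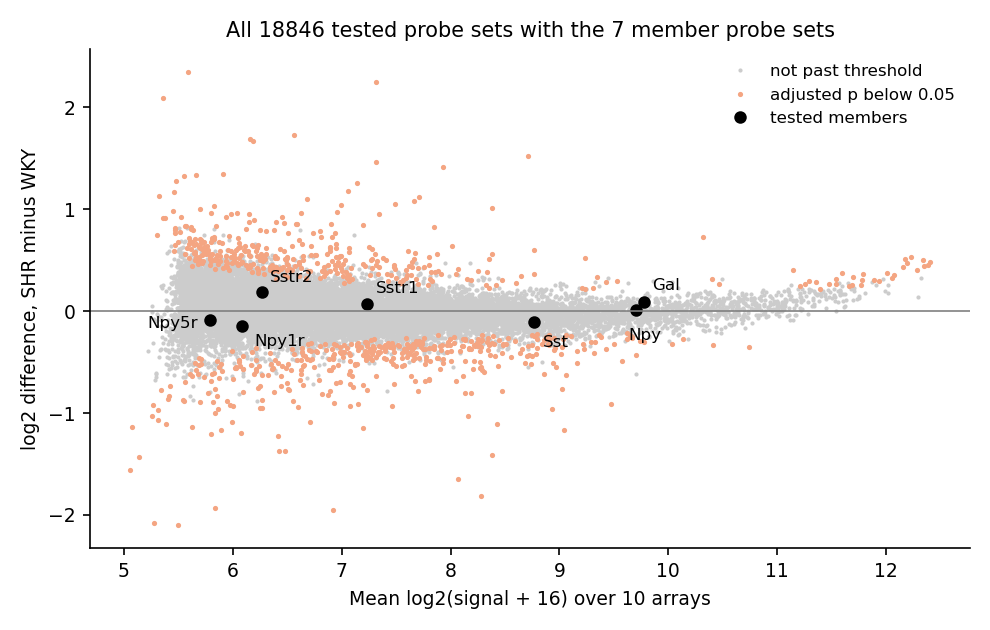
Log2 difference (SHR minus WKY) against mean log2(signal + 16) over 10 arrays for the 18846 tested probe sets, grey where not past the threshold and orange where the adjusted p was below 0.05, with the 7 members in black. The members lie inside the grey cloud, the farthest from 0 being Sstr2 at 0.18.

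No array was highest or lowest for all 7 tested genes. SHR 4 held the highest Gal and Npy1r, SHR 5 the highest Sst, SHR 2 the highest Sstr1 and SHR 3 the highest Sstr2 together with the lowest Npy. After the strain means were taken away, the 3 peptides were compared in 3 pairs over the 10 arrays, with exact permutation of arrays within strains. Npy and Sst had a Pearson r of 0.43 (permutation p = 0.244, adjusted p = 0.732) and a Spearman rho of 0.52 (permutation p = 0.133, adjusted p = 0.290), with r = 0.27 without the 2 arrays farthest from the median of Npy. Gal and Sst had r = 0.25 (permutation p = 0.516, adjusted p = 0.775) and rho = 0.45 (permutation p = 0.194, adjusted p = 0.290), and r = 0.63 without the 2 farthest arrays. Npy and Gal had r = 0.021 (permutation p = 0.957, adjusted p = 0.957) and rho = 0.36 (permutation p = 0.347, adjusted p = 0.347), and r = 0.37 without the 2 farthest arrays. Taken within each strain (5 arrays), Npy and Sst had r = 0.57 in SHR and 0.23 in WKY. Gal and Sst had 0.69 in SHR and -0.53 in WKY, and Npy and Gal had 0.43 in SHR and -0.34 in WKY. None of the 3 relations over the 10 arrays passed.

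**Figure D5:**
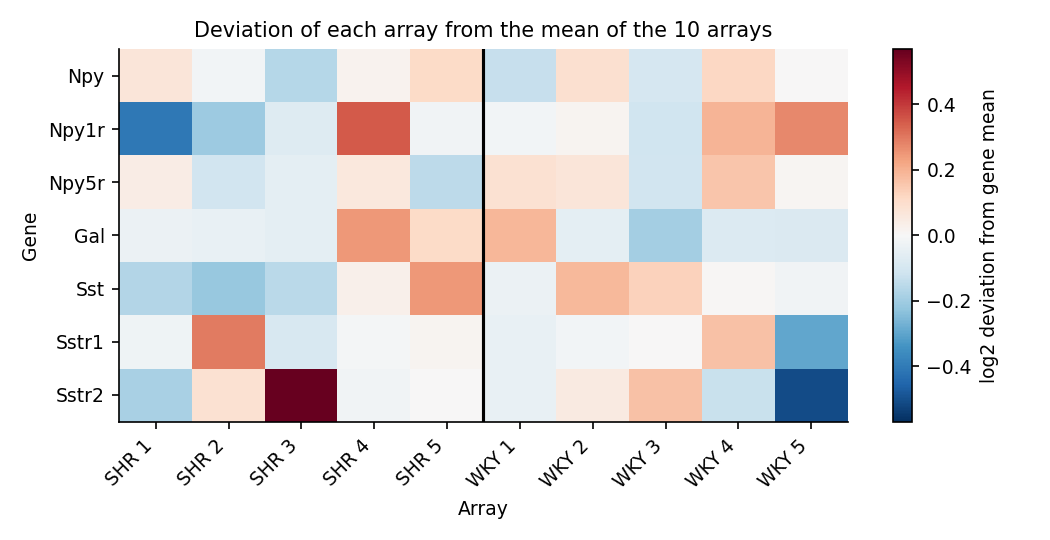
Log2 deviation of each array (columns, 5 SHR then 5 WKY, parted by the black line) from the mean of the 10 arrays for each tested member (rows), red above and blue below that mean. Sstr2 in SHR 3 and WKY 5 and Npy1r in SHR 1 show the strongest colours, and no array is red or blue in all 7 rows.

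Genes most like each peptide in array-to-array pattern were taken by Pearson r over the 10 arrays after removal of the strain means. They came from 7599 named probe sets at or above the median signal, so high values follow in part from the choice itself. The values are descriptions of these arrays. Given for each peptide are the 3 genes at the top of that ranking, without a test of shared function. For Npy they were Ncs1 (r = 0.92), a neuronal calcium sensor, Adprh (r = 0.92), an ADP-ribosylarginine hydrolase, and Micu2 (r = 0.91), a regulator of the mitochondrial calcium uniporter. For Gal they were Rnf139 (r = 0.88), Mat2a (r = 0.88), the methionine adenosyltransferase, and Nemf (r = 0.87). For Sst they were Ndufa12 (r = 0.93) and Cox5b (r = 0.92), subunits of the respiratory chain, and Rbm8a (r = 0.90), of the exon junction complex. None of these 9 passed the strain test (limma adjusted p from 0.143 to 0.989).

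Other genes of the same families were taken from a fixed list. Of 12 further family genes 10 had a probe set and 4 were tested, of which 0 passed in limma and 0 had an unadjusted p under 0.05. The shares over all probe sets tested were 4.26% and 21%. The median log2 difference of these 4 was 0.16, against 0.016 for all probe sets. Galr2, the galanin receptor that couples mainly to Gq, had 39.5 ± 9.21 in SHR arrays and 50.7 ± 9.36 in WKY arrays. It differed by -0.27 ± 0.14 log2 units, SHR minus WKY (limma adjusted p = 0.289). Its other probe set averaged 43.2 ± 10.1 in SHR arrays and 39.8 ± 6.50 in WKY arrays and differed by 0.076 ± 0.14 the other way (adjusted p = 0.799). Sstr3 had 105 ± 18.0 in SHR arrays and 95.04 ± 27.4 in WKY arrays. Sstr4 had 41.2 ± 9.30 in SHR arrays and 34.9 ± 9.52 in WKY arrays. The Y4 receptor gene Npy4r had 33.6 ± 4.28 in SHR arrays and 28.1 ± 7.72 in WKY arrays. Pyy, Ppy, Galp, Galr3, Sstr5 and Dpp4, the peptidase that trims neuropeptide Y, were too dim to be tested.

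Peptide precursors are cut and packed by enzymes and granins of the dense-core vesicle. Of 12 such genes tested 1 was higher in SHR, 0 were lower and 11 did not pass, and 2 had an unadjusted p under 0.05. Of the 12 differences 5 were above 0 and 7 below, with a median log2 difference of -0.023. Over all probe sets tested, 2.06% passed as higher and 2.2% as lower, and 21% had an unadjusted p under 0.05. The member that passed was Cpe, carboxypeptidase E, which trims basic residues from cleaved precursors. Cpe averaged 3905 ± 492 in SHR arrays and 3151 ± 279 in WKY arrays, with SHR minus WKY at 0.30 ± 0.083 log2 units (limma adjusted p = 0.0477). At the bright end of the arrays most probe sets were higher in SHR: of 156 with a mean log2(signal + 16) of at least 11, 145 had differences above 0, with a median of 0.16. With quantile normalization the difference of Cpe was 0.073 ± 0.036 (adjusted p = 0.282), whereas with 1 array left out it stayed between 0.25 and 0.36 and missed the threshold in 8 of 10 fits. Pcsk2, a prohormone convertase, had 51.6 ± 10.9 in SHR arrays and 62.5 ± 9.99 in WKY arrays and did not pass (adjusted p = 0.351). Pam, which amidates the carboxyl end of neuropeptide Y and galanin, had 849 ± 67.9 in SHR arrays and 887 ± 48.6 in WKY arrays (adjusted p = 0.596). The granin gene Chga differed by 0.087 ± 0.073 and Scg2 by 0.12 ± 0.072. In the other direction Chgb differed by -0.031 ± 0.061, Scg3 by -0.049 ± 0.077 and Vgf by -0.24 ± 0.12. The lowest difference of the list was that of Cadps2, at -0.25 ± 0.079 (limma adjusted p = 0.0864). None of these genes passed.

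Of 21 genes of Gi/o coupling and its effectors, 1 was lower in SHR, 0 were higher and 20 did not pass. Their median log2 difference was -0.061. Over all probe sets tested, 2.2% passed as lower and 2.06% as higher. Of the 21 genes 5 had an unadjusted p under 0.05 in limma, against 21% of all probe sets tested, so both counts are near those shares. The gene that passed was Gnaz, the alpha subunit of Gz, a Gi-family protein. On its brighter probe set Gnaz averaged 109 ± 12.9 in SHR arrays and 147 ± 7.61 in WKY arrays without overlap. The log2 difference there was -0.38 ± 0.084 (limma adjusted p = 0.0141). Its dimmer probe set had 75.3 ± 16.04 in SHR arrays and 62.6 ± 6.86 in WKY arrays. That one differed by 0.20 ± 0.12 the other way without passing (adjusted p = 0.357). The call ended with the median signal as a covariate, at a difference of -0.32 ± 0.11 (adjusted p = 0.262), and without SHR 2 and SHR 3 together, at -0.37 ± 0.096 (adjusted p = 0.0548). Gnai1, an inhibitory alpha subunit, differed by -0.22 ± 0.083 (adjusted p = 0.137) and Gnao1 by 0.017 ± 0.095 (adjusted p = 0.940). Among the inwardly rectifying potassium channel genes Kcnj3 differed by 0.079 ± 0.14, Kcnj5 by 0.078 ± 0.14 and Kcnj6 by 0.13 ± 0.082, none of which passed. Their other probe sets differed by -0.11 ± 0.14 for Kcnj3 (adjusted p = 0.677) and by 0.42 ± 0.15 and 0.20 ± 0.14 for Kcnj6 (adjusted p = 0.119 and 0.442).

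Markers of the transmitters that such peptide neurons use were measured beside them. Of 10 genes with a probe set 7 were tested. Of these 0 passed in limma and 4 had an unadjusted p under 0.05, where 4.26% and 21% of all probe sets tested did. Of the 7 differences 6 were below 0, with a median of -0.18. Gad1, which makes GABA, had 914 ± 95.3 in SHR arrays and 1129 ± 144 in WKY arrays. It differed by -0.30 ± 0.087 log2 units, SHR minus WKY (limma adjusted p = 0.0619). Slc32a1, the vesicular GABA transporter, had 211 ± 22.4 in SHR arrays and 256 ± 20.6 in WKY arrays. It differed by -0.26 ± 0.079 log2 units (limma adjusted p = 0.0680). Of the catecholamine enzymes, Dbh differed by -0.27 ± 0.095 (adjusted p = 0.114) and Th by -0.18 ± 0.081 (adjusted p = 0.205). Slc17a6, the vesicular glutamate transporter of the brainstem, had 998 ± 30.9 across SHR and 1056 ± 36.7 across WKY (adjusted p = 0.387 in limma). Beside them Sst differed by -0.11 ± 0.083, Npy by 0.0076 ± 0.066 and Gal by 0.089 ± 0.076. The summed signal of the 7 transmitter genes lay between 3119 and 3377 in SHR and between 3491 and 3924 in WKY. In such a sum of linear signals the bright genes, here Slc17a6 and Gad1, weigh most.

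In the series as a whole, arrays correlated at 0.947 to 0.988, and the median signal spanned 44.2 to 49.8 across SHR and 39.6 to 45.7 across WKY. Markers of the tissue were measured, with Hoxa5, Cartpt, Th, Dbh and Prlh all past the filter and Tlx3 averaging 3.36 across SHR and 3.39 across WKY. The counts that follow stand beside 4.26% of all probe sets tested that passed and 21% with an unadjusted p under 0.05. Of 10 neuronal markers 1, Snap25, was higher in SHR (adjusted p = 0.0480 in limma), 0 were lower and 4 had an unadjusted p under 0.05. Of the 10 differences 7 were above 0 and 3 below. Snap25 lay in the bright band described above, where 30 of 156 probe sets passed as higher and 0 as lower, and the part of that band in the difference was not tested. The summed signal of the 10 lay between 13928 and 14921 in SHR and between 12368 and 14065 in WKY. In that sum Snap25, which averaged 3739 in SHR arrays and 2952 in WKY arrays, weighs most. Of 8 microglia and macrophage markers tested 4 were lower in SHR (Aif1, C1qa, C1qb and Lyz2), 0 were higher and 5 had an unadjusted p under 0.05. Of the 8 differences 7 were below 0 and 1 above, that of Cx3cr1 at 0.19 ± 0.15 (limma adjusted p = 0.510). A dimmer probe set of Aif1 was higher in SHR by 0.51 ± 0.18 (adjusted p = 0.124). Cd68, too dim to be tested, averaged 26.8 ± 12.2 in SHR arrays and 9.96 ± 5.76 in WKY arrays. The summed signal of the 8 tested lay between 1240 and 1324 in SHR and between 1529 and 1761 in WKY. Of 7 astrocyte markers 0 passed in limma and 1 had an unadjusted p under 0.05, and of 4 markers of the adjoining motor nuclei 0 passed and 0 had an unadjusted p under 0.05. The other marker lists held 1 or 2 members that passed (Mobp, Vwf and Ptgds lower, Enpp2 and Sostdc1 higher, and Prlh lower among the tissue markers). Of the 5 to 7 tested in each of these lists, 2 or 3 had an unadjusted p under 0.05. The exception was that of cerebellum and forebrain, with 0 of 3 and 0 at an unadjusted p under 0.05. Mobp had -0.34 on its brightest probe set, and -1.41 (limma adjusted p = 9.7e-09) and -0.022 (adjusted p = 0.925) on others. Beside Vwf, Pecam1 was higher in SHR without overlap and did not pass (0.40 ± 0.13, limma adjusted p = 0.0851). Of the 5 endothelial and pericyte differences 3 were above 0 and 2 below. Genes of these lists were named after their values were seen.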

How the data were processed

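NTS RNA was amplified (MessageAmp II) and hybridised to Affymetrix Rat 230 2.0 arrays with 1 colour, as the labels' protocols state. The authors deposited linear intensity values, 1 for each probe set and array, produced with GCOS 1.2 per the submitters' processing notes; how background was treated, how probes were summarised and which signals were detected, these sources do not state. The values show scaling by the authors: with 2% trimmed at both ends, every array has a mean of 100.

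The 57 control probe sets were left out. Strains came from sample titles, with 5 SHR and 5 WKY arrays, and no pair of arrays shared more than 2 identical values. After log2(signal + 16), limma 3.58.1 (R 4.3.3) was run with an intensity trend and no term but strain on the 18846 kept probe sets, and p-values were adjusted over all of them. The script was tested on simulated data. Symbols came from the platform annotation, updated through Entrez identifiers to RefSeq names of GRCr8; 20826 probe sets had 1 symbol. Each list gene was represented by its brightest kept probe set.

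Members and lists were chosen with earlier results of these data known. Genes named were all members, up to 3 called genes of each pathway list, the 3 genes most like each peptide, and others chosen after their values were seen. As alternatives, arrays were quantile normalized or set to a common 75th percentile, the offset was 1 or 64, the filter was dropped or raised to the 60th percentile, eBayes was run without the trend or robustly, arrays were weighted, the replicate number or the median signal was added as a term, arrays were left out, and each gene was given 1 probe set. Protein sequences were not used here. The number of arrays limits the precision.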

Additional observations from a re-analysis of the deposited data

Results flagged for a closer look

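Of 30 groups of 5 arrays examined (each strain for the 13 member probe sets, Cpe and Gnaz), 1 held an array far from the others, where chance flags about 1 in 20 groups. Sstr1 on its brightest probe set had a signal of 169 in SHR 2, while the other SHR arrays lay between 125 and 136. The gap to the nearest array was 0.752 of the whole range, above the critical value of 0.71. The further probe sets of Sstr1 had 4.19 and 7.06 in SHR 2, below the other SHR arrays on the one and above them on the other.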

How the results depend on the processing

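Under all 23 alternatives 0 member probe sets passed (Npy, Gal, Sst and Sstr1 were left by the filter at the 60th percentile, and 13 were tested without a filter). Gal, Sst, Sstr1 and Npy5r kept the sign of their difference under every alternative run, between 0.038 and 0.15, between -0.18 and -0.017, between 0.0077 and 0.12, and between -0.20 and -0.040. The signs of Npy1r and Sstr2 turned with the median signal as a covariate, to 0.044 and -0.16, and the cause was not tested; that covariate overlaps with strain. The difference of Npy ranged from -0.024 to 0.049 with 1 array left out, and its sign turned in 4 of the 10 such fits; it was 0.14 with the covariate and 0.070 without SHR 2 and SHR 3 together. The count over all probe sets, 803, was 206 with the covariate, 512 without SHR 2 and SHR 3 together, 438 with 1 probe set for each gene (fewer features tested), and 480 to 976 with 1 array left out, the lowest without WKY 4 (480) and WKY 5 (481). With the replicate number as a block it was 1214, while 0 members passed; same-numbered arrays of the strains correlated at 0.038 to 0.28 in their deviations from the strain means, 2 of the 5 correlations were under 0.1, and 3 of the 5 SHR arrays correlated best with the WKY array of their own number, a hint from the data and not the design, so the arrays were not taken as paired. Of the 2 called pathway genes, the call of Cpe ended in 15 of 23 alternatives, at differences of 0.25 to 0.34 in 14 of them and of 0.073 with quantile normalization, and that of Gnaz in 2, at -0.32 and -0.37. Signals near the offset limit what can be said of Npy2r and Galr1.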
